A study of Mus musculus with 18 samples.

Results

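The posterior genes of the mouse HoxC cluster, Hoxc8, Hoxc9, Hoxc10, Hoxc11, Hoxc12 and Hoxc13, and the long noncoding RNA gene Hotair that lies among them were followed in every library of a study of embryos without heads. They were taken by symbol, and all 7 were found among the 55138 genes listed in both deposited tables. All 7 passed the filter on low counts in the E10.5 libraries, and 6 of 7 passed at E9.5, where Hoxc12 was too low to be tested. The series title concerns insulation of Hoxb13, the 5′ gene of the HoxB cluster, and tail length, and Hoxc13 is the group 13 paralog of Hoxb13 in HoxC. RNA was sequenced in 18 libraries of 6 groups with 3 libraries each. At embryonic day E9.5 the groups were wild-type littermates and embryos homozygous for HoxB Del(i9-13). At E10.5 they were wild-type littermates, Del(i9-13) homozygotes, Hoxb13hd homozygotes and embryos homozygous for both alleles, labelled Del(i9-13):Hoxb13hd. The name Del(i9-13) was taken to mean that the HoxB stretch separating Hoxb9 from Hoxb13 is deleted, and the labels do not spell out hd. No transgene, Cre or agent is named in the labels, the HoxC cluster carries no labelled allele in any group, and whether a replicate is an embryo or a pool is not stated. The p-values below therefore measure the spread between these libraries, part of which may be technical. Counts of Xist, the RNA of the inactive X, differed widely within every group but E9.5 Del(i9-13), such as 21, 14156 and 11 in E10.5 wild type. The libraries of those groups thus do not all come from the same sample. Poly(A)-enriched RNA was used at E9.5 and ribo-depleted RNA at E10.5, so that stage and library type cannot be told apart.

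Hox genes encode homeodomain transcription factors that give cells of the body axis and limbs their position. Within a cluster they are switched on in order, from the genes at the 3′ end (low numbers, anterior) to those at the 5′ end (high numbers, posterior), and the last genes of the order are active near the tail tip. In the trunk, Hoxc8 and Hoxc9 are known for thoracic identity and for sorting thoracic motor neurons, Hoxc10 and Hoxc11 for the lumbosacral region and the hindlimb, and Hoxc12 and Hoxc13 for the tail end, with Hoxc13 also known from hair follicles. Hotair is transcribed antisense to its neighbours, between Hoxc11 and Hoxc12, and has been studied as a possible partner of Polycomb complexes, which hold Hox genes silent.

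MicroRNA genes of the miR-196 family lie within the Hox clusters, 1 of them (Mir196a-1) in the HoxB interval beside Hoxb9 and another (Mir196a-2) in HoxC between Hoxc10 and Hoxc9. They are shown because Mir196a-1, which lies in the stretch that Del(i9-13) was taken to remove, lay low in the deletion libraries. Hoxc8 is also the only gene among the 6 coding genes followed here whose 3′UTR holds a match to the miR-196 seed. Capitals mark the seed, bases 2 to 8, in the mature sequences (RefSeq, GRCm38.p6), and in the Hoxc8 stretches the letters ACTACCT that pair with it.
mmu-miR-196a-5p: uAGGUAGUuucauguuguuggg
mmu-miR-196b-5p: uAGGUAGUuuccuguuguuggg
Hoxc8 3′UTR, upstream match: acactcacaactctaACTACCTg
Hoxc8 3′UTR, downstream match: ataaatctttaacatACTACCTa
The first mature sequence is encoded on the plus strand at chr11:96265187-96265208 (Mir196a-1) and chr15:102973365-102973386 (Mir196a-2), and miR-196b-5p on the minus strand at chr6:52230129-52230150. All 3 genes share 1 seed. The Hoxc8 stretches lie on the plus strand at chr15:102992975-102992997 and chr15:102993732-102993754 (mm10, annotated 3′UTR of the GENCODE M21 transcript). On the transcript strand, ACTACCT was found in the annotated 3′UTR of 1377 of 20999 genes (6.56%) and of 9 of 39 Hox genes, Hoxc8 among them. A match is a description of letters and was not tested as a site. Mir196a-1 held 48, 36 and 25 counts in the E9.5 wild-type libraries and 4, 9 and 3 in Del(i9-13), with no overlap (log2 change −2.72, SE 0.45, adjusted p = 0.0548, edgeR's quasi-likelihood test with Benjamini-Hochberg adjustment). At E10.5 it held 7, 8 and 9 counts in wild type, 2, 0 and 1 in Del(i9-13), 0, 2 and 1 in Del(i9-13):Hoxb13hd and 6, 10 and 5 in Hoxb13hd. Mir196a-2, on the other hand, held 0 counts in all 6 libraries at E9.5 and 0 to 3 at E10.5. Libraries of long RNA do not measure the mature microRNA, so these counts describe only reads placed at the genes. For Mir196a-1, low counts in the deletion libraries cannot be told apart from loss of the gene itself. No link between these counts and Hoxc8 was tested.

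On chromosome 15 (mm10) the genes run from Hoxc13 (ENSMUSG00000001655, 102921103 to 102928814) through Hoxc12 (ENSMUSG00000050328, 102936757 to 102938609), Hotair (ENSMUSG00000086903, 102944062 to 102947730), Hoxc11 (ENSMUSG00000001656, 102954427 to 102957708), Hoxc10 (ENSMUSG00000022484, 102966796 to 102971893) and Hoxc9 (ENSMUSG00000036139, 102976439 to 102985099) to Hoxc8 (ENSMUSG00000001657, 102990607 to 102993821). The gaps between neighbours measure 4545 to 9087 bases. Hotair lies on the minus strand and the other 6 on the plus strand. Whether reads were counted by strand is not stated, so the low counts of Hotair are uncertain. None of these genes lies in the deleted HoxB interval on chromosome 11, and any change in them is a change outside the altered cluster.

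Library totals ran from 29829820 to 35934843 counts at E9.5 and from 19333138 to 25722951 at E10.5. Hoxb13 held 0 to 25 counts in the libraries without the deletion and 130 to 1421 in those with it. Of 10 head and brain markers, the forebrain and eye genes Six3, Six6, Otx2 and Rax were at most at 0.201 CPM (counts scaled to the library's effective total) in every library, whereas Emx2 and Lhx2, which trunk tissues also express, reached 10.97 and 28.7 CPM. E10.5 Del(i9-13) library 2 stood apart from the other 11 E10.5 libraries in the HoxC genes themselves and is described on its own below. E10.5 wild-type library 3 and E9.5 wild-type library 1 were low in tail bud genes: 10 and 13 of 18 axial elongation genes had their lowest value of the stage there, such as T, a transcription factor gene of the early mesoderm and notochord (2.74 CPM against 6.38 to 24.6 in the other E10.5 libraries, and 10.6 against 35.3 to 53.6 at E9.5). In bulk samples, fewer cells of a type and less RNA per cell cannot be told apart.

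Levels were highest at Hoxc8 to Hoxc10 and far lower toward the 5′ end of the cluster. Levels between genes are given as deposited FPKM, fragments scaled to transcript length and to the mapped fragments of the library. In E9.5 wild type, Hoxc10 was highest, with 18.96, 27.37 and 27.01 FPKM, followed by Hoxc8 with 18.4, 18.4 and 18.8 FPKM. The ranges of these highest genes do not overlap. Hoxc9 had 5.64, 6.28 and 5.92 FPKM and Hoxc11 1.43, 3.43 and 3.12, again separate from each other and from the genes above. Hotair (mean 0.279 FPKM), Hoxc13 (0.221) and Hoxc12 (0.144) lay at the bottom with overlapping ranges, so that their order is not resolved. Hoxc12, the lowest, rested on 6, 9 and 5 counts.

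In E10.5 wild type Hoxc8 came first (8.34, 7.85 and 7.01 FPKM), then Hoxc10 (6.24, 5.74 and 5.24), Hoxc9 (3.86, 3.91 and 3.47) and Hoxc11 (1.73, 1.34 and 0.840), each step without overlap. The 5′ genes Hoxc12 (mean 0.533 FPKM) and Hoxc13 (0.215) and Hotair (0.159) again overlapped. Set beside each other with no test, because library type changed with stage, Hoxc10 had 24.4 FPKM at E9.5 and 5.74 at E10.5, a ratio of 0.235. That was the lowest ratio among the 9 HoxC genes and Hotair, while Hoxc12, with 0.144 and 0.533 FPKM, was the only one of them with a ratio above 1 (3.71, from 20 counts in all at E9.5). Hoxc13 was nearly level (0.221 and 0.215 FPKM), and the anterior gene Hoxc6 went from 24.1 to 8.85 FPKM.

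The order of levels held in the mutants with few exceptions. Hoxc8 was highest in E10.5 Del(i9-13) and Del(i9-13):Hoxb13hd, without overlap with the next gene. In Hoxb13hd, Hoxc10 (mean 8.397 FPKM) and Hoxc8 (8.25) overlapped, as they did in E9.5 Del(i9-13) (21.6 and 18.9). Hoxc9 was the third gene in every group, overlapping Hoxc10 in E10.5 Del(i9-13). Hotair had the lowest mean in all 4 E10.5 groups, overlapping Hoxc13 in 3 of them, and its level was 7.57% to 18.0% of that of its neighbour Hoxc11 in every library.

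**Figure D1:**
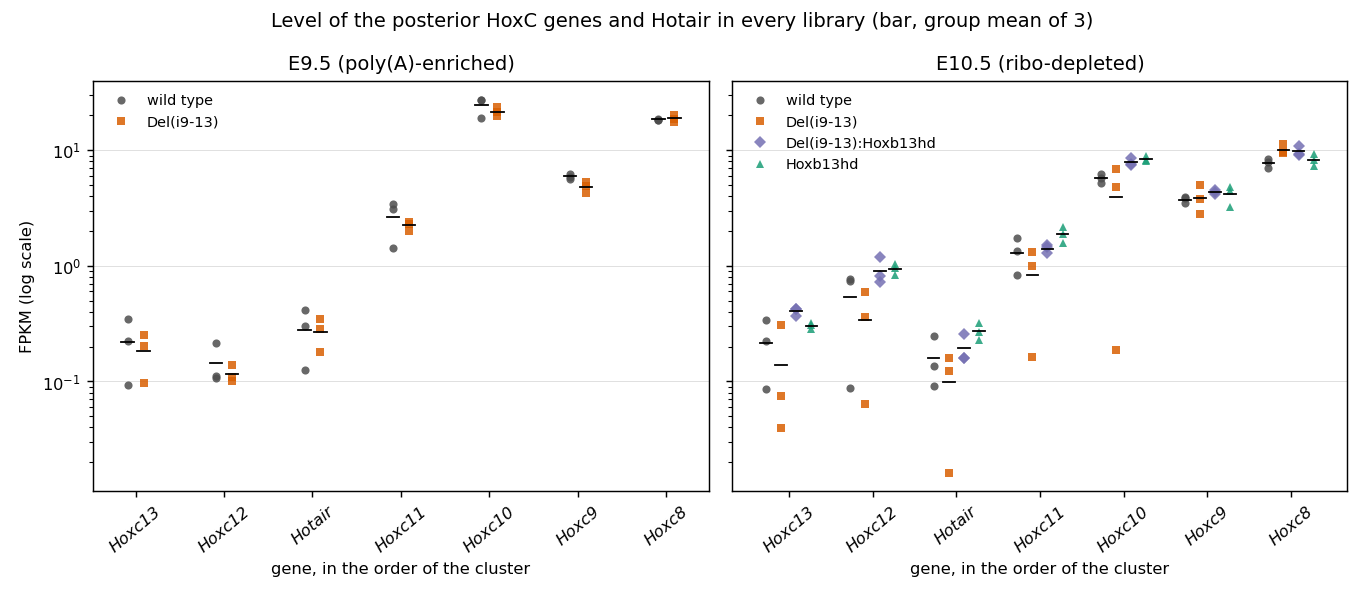
FPKM on a log axis of the 7 genes, in the order of the cluster from Hoxc13 to Hoxc8, at E9.5 (left) and E10.5 (right). Each symbol is a library and each bar the mean of a group of 3. Levels climb from well under 1 FPKM at the 5′ end to 18.96 to 27.37 FPKM for Hoxc10 in E9.5 wild type. In E10.5, 1 orange square, Del(i9-13) library 2, lies far down for Hoxc10, Hoxc11 and Hotair. It is also the lowest for Hoxc12 and Hoxc13, where wild-type library 3 and, for Hoxc13, Del(i9-13) library 3 lie near it.

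At E9.5, Del(i9-13) against wild type asked whether embryos with high Hoxb13 differ in posterior HoxC genes. Of the 6 genes tested 0 were called at an adjusted p of 0.05 (edgeR's quasi-likelihood test, Benjamini-Hochberg over 16041 genes), where 0.362% of all genes were called (0.0935% higher, 0.268% lower), and 1 of 6 had an unadjusted p under 0.05, against 11.7% of all genes. DESeq2 also called 0. Hoxc9 was the gene with groups that did not overlap, at 17.1, 19.1 and 17.7 CPM in wild type and 14.97, 15.8 and 13.4 in Del(i9-13). All 3 deletion libraries lay below all 3 wild-type libraries, by a log2 change of −0.29 (SE 0.09, 95% interval −0.50 to −0.08, adjusted p = 0.30). Exact two-sided permutation over these 3 and 3 libraries gave p = 0.1, the smallest possible. Of all genes tested, 18.9% had groups that did not overlap, 9.06% with the deletion libraries higher and the rest, like Hoxc9, with them lower. Other lists separated the same groups: axial elongation genes summed to 1206 to 1243 CPM in Del(i9-13) against 948 to 1148 in wild type, and head and brain markers to 17.8 to 25.4 against 26.5 to 29.7. Most of the head and brain sums came from Lhx2 and Emx2, which trunk tissues also express (E9.5 medians of 10.6 and 9.49 CPM). Liver bud and visceral endoderm markers did not separate the groups, with sums of 116, 266 and 1244 CPM in Del(i9-13) against 29.8, 34.3 and 117 in wild type. The part of these lists in the Hoxc9 values was not tested. Hoxc8 lay at 44.2, 43.5 and 44.1 CPM in wild type and 44.9, 47.3 and 41.4 in Del(i9-13), a log2 change of 0.02 with an interval of −0.12 to 0.16.

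The other genes overlapped between the E9.5 groups. Hoxc10 had 44.9, 63.8 and 62.9 CPM in wild type against 46.5, 53.9 and 50.7 in Del(i9-13) (log2 −0.18, SE 0.14), and Hoxc11 3.84, 8.87 and 8.05 against 6.04, 5.94 and 5.20 (log2 −0.27, SE 0.29). Wild-type library 1, low in tail bud genes, had the lowest value of the 6 libraries for Hoxc10, Hoxc11, Hoxc13 and Hotair. Without it the log2 change of Hoxc10 was −0.33 and that of Hoxc11 −0.56. It was also the wild-type library with few counts of Xist, the RNA of the inactive X (45, against 44046 and 46969), and the 3 Del(i9-13) libraries held 31 to 43. Hoxc13 held 10, 31 and 20 counts in wild type against 10, 18 and 24, and Hotair 18, 31 and 26 against 31, 18 and 23, with log2 changes of −0.25 (interval −1.44 to 0.93) and −0.10 (−0.88 to 0.69). With Xist as a covariate the negative values of Hoxc10, Hoxc11, Hoxc13 and Hotair turned positive, to 0.17, 0.60, 0.96 and 0.58. Since library 1 was the only wild-type library low in Xist, like the Del(i9-13) libraries, that fit sets those mainly against this library. It therefore cannot settle the direction of these genes at E9.5. Hoxc12 held 6, 9 and 5 counts against 9, 6 and 4 (exact two-sided permutation p = 0.9).

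At E10.5, Del(i9-13) library 2 held few transcripts of the 5′ HoxC genes. Hoxc10 had 18.4, 0.498 and 12.6 CPM in the 3 Del(i9-13) libraries, from 460, 11 and 299 counts, while the other 9 E10.5 libraries had 14.2 to 25.5 CPM. Set against the pooled counts of the other 11 libraries, library 2 had 2.63% of their Hoxc10 level (exact 95% interval of the count ratio 1.31% to 4.70%, covering counting error only). Hoxc11 stood at 10.6% (5.06% to 19.5%), from 10 counts, against 57 to 127 in the others. Hoxc12 and Hoxc13, with 3 counts each, were at 11.1% (2.27% to 32.6%) and 13.6% (2.78% to 40.2%), and Hotair, with 1 count, at 7.73% (0.194% to 43.7%). For Hoxc12 and Hoxc13, both at 0.136 CPM, library 2 was not alone in being low. Wild-type library 3 held 4 counts of Hoxc12 (0.168 CPM) and 9 of Hoxc13 (0.379 CPM). Del(i9-13) library 3 held 6 counts of Hoxc13 (0.253 CPM).

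Toward the 3′ end of the cluster the values of library 2 were nearer to those of the others. Hoxc9 in library 2 was at 65.3% (56.5% to 75.1%) of the others and still the lowest of 12, and Hoxc8 at 106% (97.5% to 116%). Further 3′, Hoxc6 had 18.2 CPM, 70.0% of the median of the others but within their range (17.2 to 31.7). Hoxc5 had its highest value of the stage there, 58.4 CPM against 31.1 to 40.1, and Hoxc4 was at 106% of the median. The sum of the FPKM of the 9 HoxC coding genes in library 2, 44.7, was within the 44.5 to 57.5 of the others, but Hoxc10 to Hoxc13 made up 1.01% of it, against 13.6% to 23.5% in the other 11 libraries. Library 2 also had the fewest Hoxb13 counts of its group, 130 against 269 and 288.

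Other genes were low in the same library. Hoxa13, the HoxA paralog of Hoxc13, had 0.317 CPM there, against 3.69 to 6.25 in the other E10.5 libraries. Tbx4, a T-box gene of the early hindlimb, had 3.03 CPM against 14.9 to 27.6, and Pitx1, a hindlimb homeobox gene, had 9.60 against 24.1 to 43.3. The forelimb gene Tbx5, by contrast, had 21.4 CPM against 12.5 to 22.3. Of the 18 axial elongation genes, 5 had their lowest value of the stage in library 2 (Gdf11, Lin28a, Wnt5a, Nkx1-2 and Sall4), and their summed level, 605 CPM, was the lowest of the 12 libraries (others 653 to 1078). T and Cdx2, at 6.38 and 2.85 CPM, were at 52.7% and 61.4% of the median of the others. Of the 13 posterior Hox genes of other clusters, 7 had their lowest value of the stage in library 2, as did 2 of 10 limb bud genes and 5 of 14 genes beside the HoxC cluster. Among 12540 genes, 21 were at 50% or less of the lowest other library in it, Hoxc10 and Hoxc11 among them. In the other E10.5 libraries this number ran from 0 to 73, the highest in Hoxb13hd library 2, and none of the HoxC genes was among them. What part these values have in each other was not tested.

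**Figure D2:**
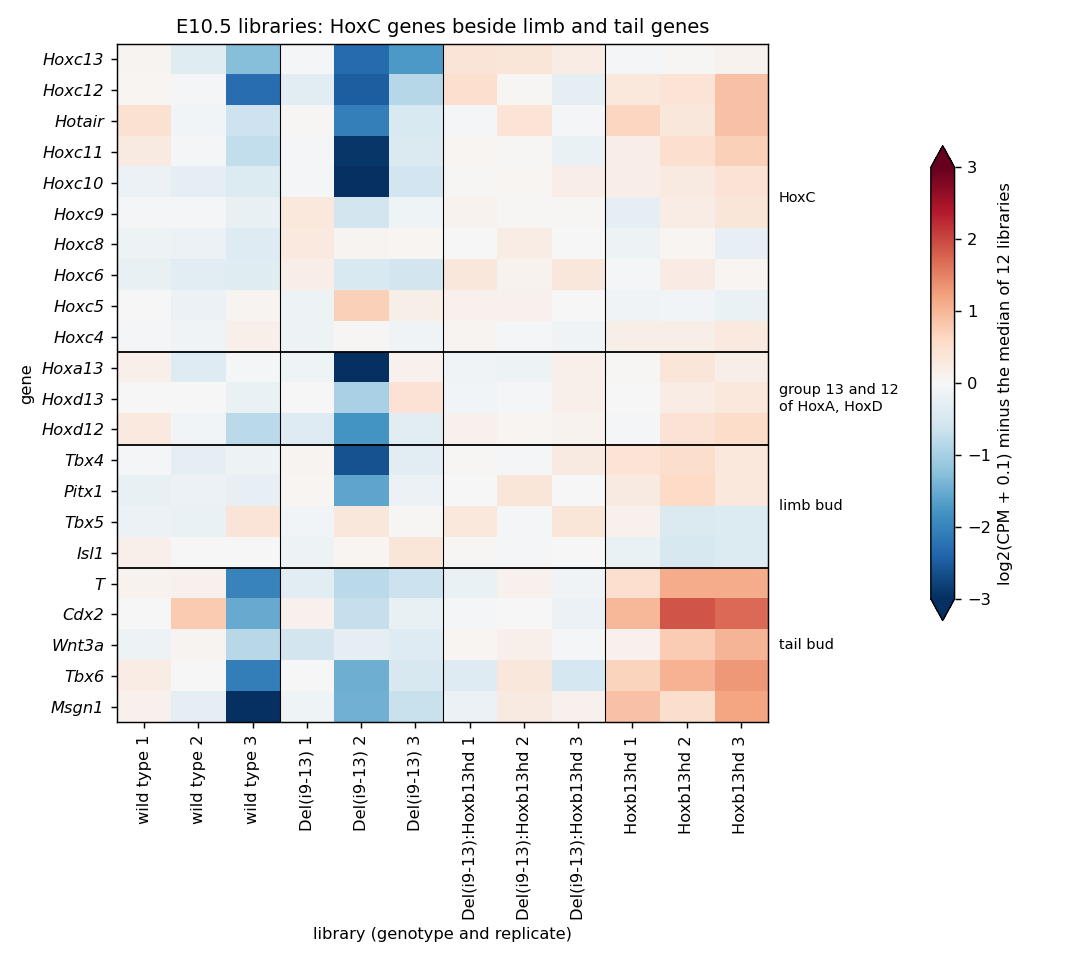
Colour gives log2(CPM + 0.1) of a gene in each of the 12 E10.5 libraries minus the gene's median over the 12, blue below and red above, with values past 3 drawn at the end of the scale. Rows are the HoxC genes and limb, tail and other posterior genes, the latter chosen after their values were seen. The column of Del(i9-13) library 2 is dark blue for Hoxc10, Hoxc11, Hoxa13 and Tbx4 and pale for Hoxc8, Hoxc4 and Isl1, while wild-type library 3 is blue for Msgn1, Tbx6, T and Hoxc12.

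In E10.5 Del(i9-13) against wild type, 0 of the 7 genes were called, where 0.488% of the 17202 genes tested were (0.244% higher and 0.244% lower), and the median log2 change was −0.57 against 0.00 over all genes. Of the 7, 1 had an unadjusted p under 0.05, against 9.13% of all genes, and DESeq2 called 0. Hoxc8 was the gene with groups that did not overlap. It had 22.9, 22.4 and 19.5 CPM in wild type and 31.3, 26.8 and 26.6 in Del(i9-13), each deletion library above each wild-type library (log2 0.39, SE 0.11, 95% interval 0.16 to 0.62, edgeR adjusted p = 0.194). Groups did not overlap for 13.0% of all genes, and 6.37% had all deletion libraries higher. Over the alternative settings run, the adjusted p of this change ran from 0.0900 with DESeq2 to 0.575 with library 2 and wild-type library 3 left out, and its log2 value from 0.31 to 0.43.

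The negative values of the 5′ genes rested on library 2. Log2 changes were −0.55 (SE 0.73) for Hoxc10, −0.59 (0.50) for Hoxc11, −0.57 (0.63) for Hoxc12, −0.65 (0.55) for Hoxc13 and −0.67 (0.55) for Hotair. Without library 2 they were 0.00, −0.11, −0.12, −0.23 and −0.19. Hoxc10 shows this most directly, since the other 2 deletion libraries (18.4 and 12.6 CPM) lie on either side of wild type (16.7, 15.7 and 14.2 CPM). Hoxc13 had 1.13, 0.805 and 0.379 CPM in wild type and 1.04, 0.136 and 0.253 in Del(i9-13), from 25, 19 and 9 against 26, 3 and 6 counts. Its groups overlap, and leaving out Del(i9-13) library 1 in place of library 2 took its log2 change to −1.94 (edgeR adjusted p = 0.0698). Hoxc9 had 13.2, 13.5 and 11.9 CPM in wild type and 17.3, 9.37 and 12.6 in Del(i9-13), a log2 change of 0.03 (interval −0.40 to 0.45).

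**Figure D3:**
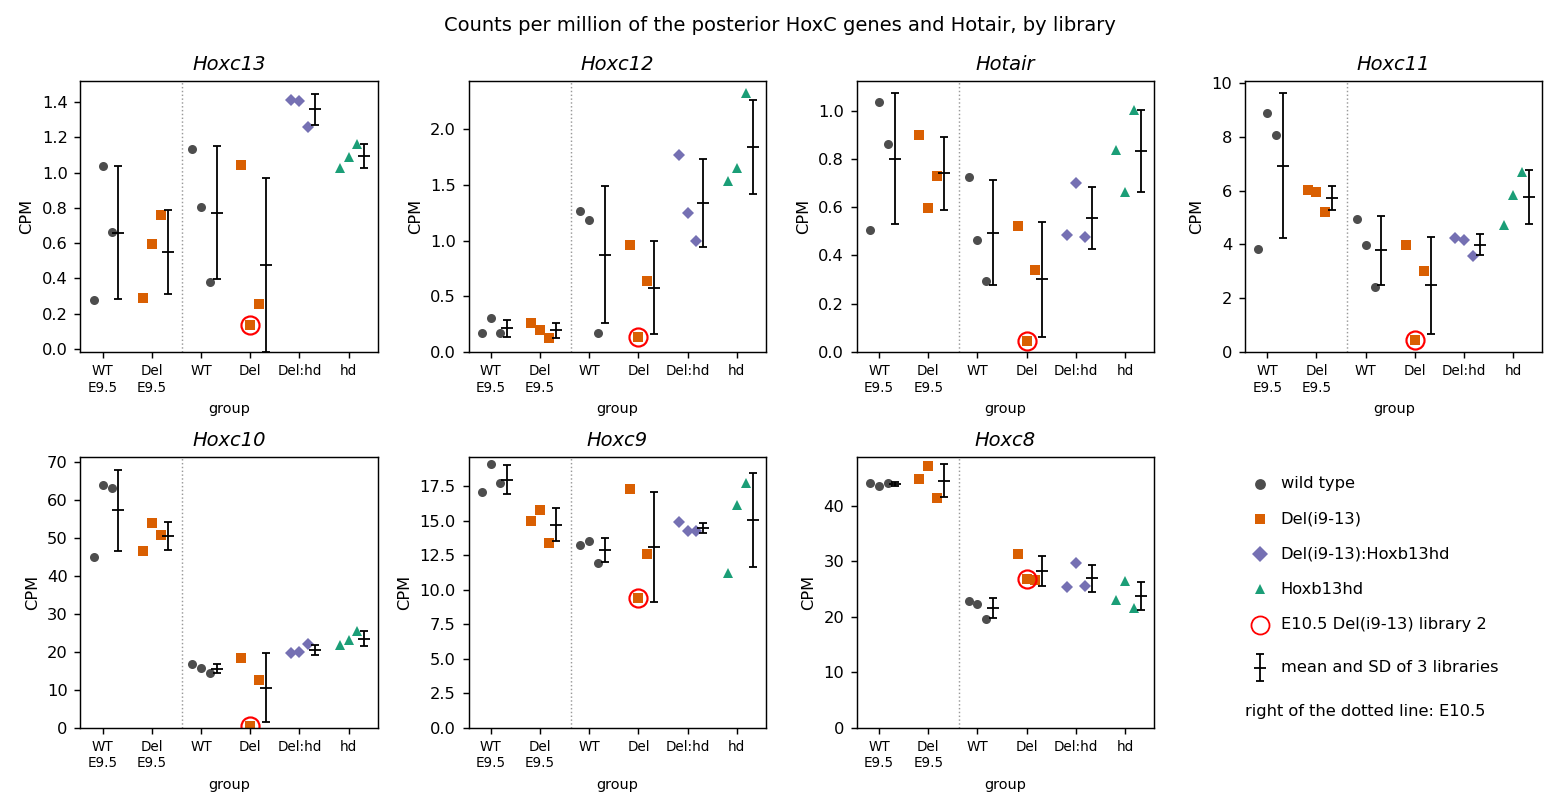
CPM of each gene in every library, with E9.5 left and E10.5 right of the dotted line, and the mean with SD of each group of 3 beside the symbols (WT, wild type; Del, Del(i9-13); Del:hd, both alleles; hd, Hoxb13hd). The red ring marks Del(i9-13) library 2, which is the lowest E10.5 library for 6 of the 7 genes and lies within its group for Hoxc8.

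Embryos with both alleles, Del(i9-13):Hoxb13hd, showed a tight group without a low library. Against the same wild-type libraries as above, 0 of 7 genes were called, where 0.401% of all genes were (0.192% higher, 0.209% lower), and all 7 had positive log2 changes, with a median of 0.32. Of the 7, 1 had an unadjusted p under 0.05 (12.5% of all genes), and DESeq2 called 0. Groups did not overlap for Hoxc8, Hoxc9, Hoxc10 and Hoxc13, 4 of 7 genes, each with all double mutant libraries higher, where 21.5% of all genes did not overlap and 11.2% had all double mutant libraries higher. Hoxc8 had 25.3, 29.7 and 25.6 CPM (log2 0.32, SE 0.11, edgeR adjusted p = 0.262). Hoxc10 had 19.5, 19.9 and 21.9 CPM (log2 0.40, interval −1.23 to 2.03), and Hoxc9 14.9, 14.3 and 14.2 (log2 0.17). Hoxc13, at 1.41, 1.40 and 1.26 CPM from 32, 36 and 29 counts, had its highest mean of all groups here (log2 0.82, SE 0.50, edgeR adjusted p = 0.536). Hoxc11, Hoxc12 and Hotair overlapped with wild type, with log2 changes of 0.08, 0.62 and 0.18. Wild-type library 3 was the lowest of its group for all 7 genes, and without it and Del(i9-13) library 2 the values of Hoxc11 and Hotair were −0.15 and −0.075, and that of Hoxc12 0.14. With an Xist covariate Hoxc11 and Hotair were at −0.14 and −0.10.

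In Hoxb13hd against the same wild-type libraries all 7 values were again positive, with a median log2 change of 0.59 against 0.00 over all genes, and 0 of 7 were called, where 3.01% of all genes were (1.42% higher, 1.59% lower). None of the 7 had an unadjusted p under 0.05 (20.4% of all genes), and DESeq2 called 0. Hoxc10 had 21.7, 23.0 and 25.5 CPM, all above the wild-type libraries, and its level was 1.51 times that of wild type (log2 0.59, SE 0.72, edgeR adjusted p = 0.708). The 4 groups share 1 estimate of spread, to which Del(i9-13) library 2 adds. With that library left out, a choice made after its values were seen, the change was 0.58 with SE 0.13 and was called (adjusted p = 0.0377), and a fit of only the groups compared called it as well (0.59, SE 0.10, adjusted p = 0.0228). Over all genes, these fits called 514 of 17544 and 333 of 16447. Leaving out wild-type library 3 along with Del(i9-13) library 2 ended the call (0.54, edgeR adjusted p = 0.105).

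Hoxc12 was the other gene without overlap in Hoxb13hd, at 1.54, 1.66 and 2.32 CPM against 1.27, 1.19 and 0.168 in wild type (33, 35 and 44 counts against 28, 28 and 4). Its log2 change was 1.07 (SE 0.58, edgeR adjusted p = 0.322), and 0.58 without wild-type library 3 and Del(i9-13) library 2. Groups did not overlap for 2 of 7 genes, against 25.4% of all genes, 12.8% with the Hoxb13hd libraries higher. Hoxc11 had 4.71, 5.82 and 6.71 CPM against 4.94, 3.98 and 2.40 (log2 0.61), and Hotair 0.839, 0.663 and 1.00 CPM against 0.725, 0.466 and 0.295 (log2 0.75), both with overlap. Hoxc13 (log2 0.50), Hoxc9 (0.22) and Hoxc8 (0.14) overlapped too.

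Of 18 axial elongation genes, 5 were called higher in Hoxb13hd than in wild type, with a median log2 change of 1.02. The 4 with the smallest p were the zinc finger gene Sall4 (0.62), the heterochronic RNA-binding gene Lin28a (0.68), the caudal homeobox gene Cdx1 (1.16) and the growth factor gene Fgf8 (0.79). The summed level of the 18 genes was 922 to 1078 CPM in Hoxb13hd and 655 to 833 in wild type. Summed heart muscle markers, in turn, were at 89.1 to 584 CPM in Hoxb13hd and 228 to 1669 in wild type, and summed liver bud and visceral endoderm markers at 45.2 to 129 and 195 to 650 CPM. Their part in the HoxC values was not tested.

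Del(i9-13):Hoxb13hd against Hoxb13hd, which reuses the mutant libraries of the preceding comparisons, asks what the deletion changes on the Hoxb13hd background. Of 7 genes 0 were called (0.959% of all genes, 0.674% higher and 0.285% lower), none had an unadjusted p under 0.05 (15.2%), DESeq2 called 0, and 5 of 7 had negative values, with a median of −0.19. Hoxc11 had 4.24, 4.18 and 3.56 CPM in the double mutants against 4.71, 5.82 and 6.71, all lower (log2 −0.52, SE 0.48, edgeR adjusted p = 0.674). Hoxc13 had 1.41, 1.40 and 1.26 CPM against 1.03, 1.09 and 1.16, all higher (log2 0.32, SE 0.49, edgeR adjusted p = 0.821). These were the 2 genes without overlap, against 22.6% of all genes tested, 12.2% with the double mutants higher and the rest with them lower. With Del(i9-13) library 2 out of the shared spread, Hoxc11 had the same change with SE 0.24 (adjusted p = 0.315). Hoxc8 was at 0.18, Hoxc9 at −0.05, Hoxc10 at −0.19, Hoxc12 at −0.46 and Hotair at −0.57. In this comparison 17 of 18 axial elongation genes had negative values, with a median of −0.80 and Lin28a called lower (−0.79).

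**Figure D4:**
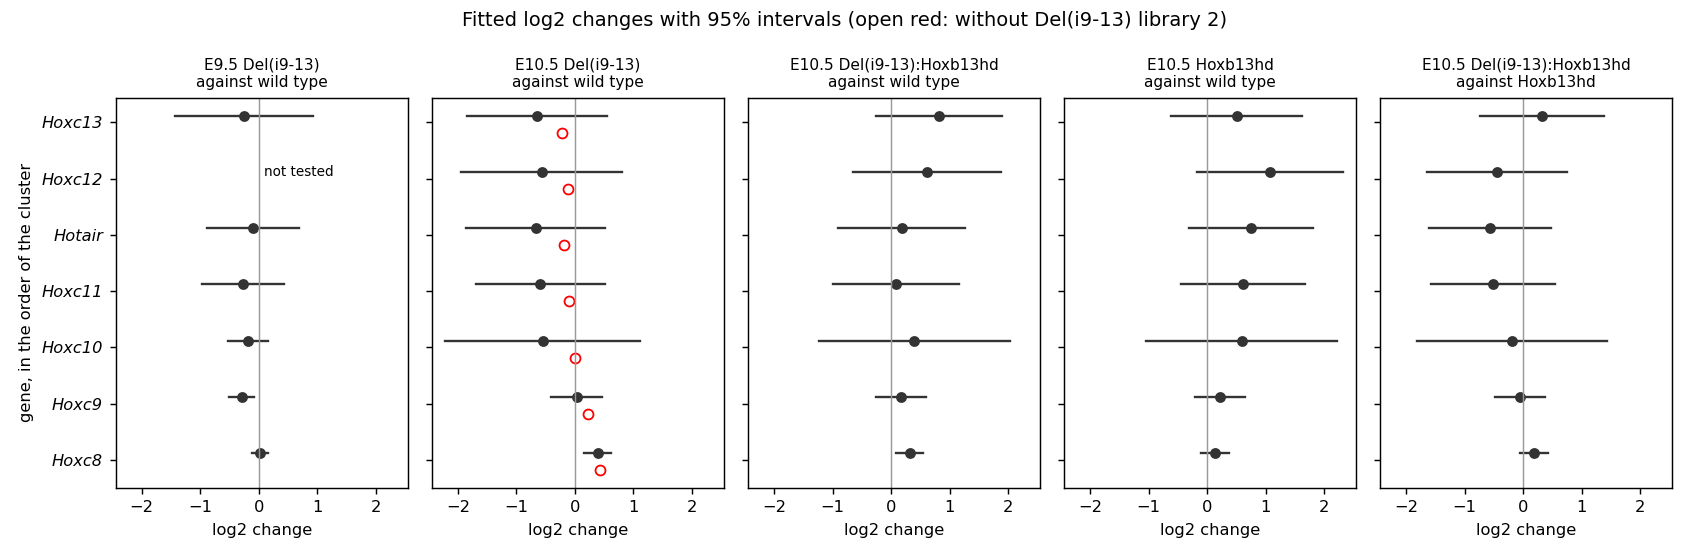
Fitted log2 changes (points) with 95% intervals (lines) of the 7 genes in 5 comparisons, where the first group named is the numerator. Open red circles give the values of E10.5 Del(i9-13) against wild type without Del(i9-13) library 2: Hoxc10 moves from −0.55 to 0.00, while Hoxc8 stays at 0.39 and 0.43. The 3 comparisons with wild type at E10.5 share the wild-type libraries.

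Averaged over both hd states at E10.5, the deletion gave 0 calls among the 7 genes, where 0.5% of all genes were called (0.279% higher, 0.221% lower), and 1 unadjusted p under 0.05 (13.6% of all genes). Hoxc8 was the gene with the smallest p, higher with the deletion by a log2 of 0.28 (SE 0.08, 95% interval 0.12 to 0.45, edgeR adjusted p = 0.133). DESeq2 called it (log2 0.28, adjusted p = 0.047), as it called 382 of 32451 genes in all. The edgeR settings and limma did not call it, with adjusted p of 0.0924 and more. In terms of level, Hoxc8 had means of 28.2 ± 2.64 and 26.9 ± 2.46 CPM (SD, n = 3) with the deletion and 21.6 ± 1.83 and 23.7 ± 2.54 without it, and the 6 deletion libraries (25.3 to 31.3 CPM) overlapped the other 6 (19.5 to 26.5). The summed level of the 10 head and brain markers also differed by deletion. It was 34.7 to 38.6 CPM in Del(i9-13) and 38.3 to 41.9 in the double mutants, against 23.4 to 29.6 in wild type and 26.99 to 33.5 in Hoxb13hd. Most of that sum came from Lhx2 and Emx2, which trunk tissues also express (medians of 23.3 and 7.14 CPM over the 12 E10.5 libraries). Liver bud and visceral endoderm markers summed to 2141, 362 and 315 CPM in the Del(i9-13) libraries and 276 to 350 in the double mutants. Wild type, at 195 to 650 CPM, overlapped both groups, while Hoxb13hd had 45.2 to 129. Del(i9-13) library 1, with the sum of 2141 CPM, also had the highest Hoxc8 value of the stage (31.3 CPM). The part of these markers in the Hoxc8 values was not tested. The other genes had averaged changes of −0.01 (Hoxc9), −0.37 (Hoxc10), −0.56 (Hoxc11), −0.51 (Hoxc12), −0.17 (Hoxc13) and −0.62 (Hotair).

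An interaction term tested whether the deletion effect depends on hd, and called 0 of 7 genes (0.523% of all genes, 0.273% higher and 0.25% lower). None of the 7 had an unadjusted p under 0.05 (11.7% of all genes), and DESeq2 called 0. Its highest value was that of Hoxc13, 0.97 (SE 0.74, interval −0.62 to 2.56, edgeR adjusted p = 0.63), which was 0.55 without Del(i9-13) library 2. Whether the deletion effect differed between E9.5 and E10.5 was asked in a fit of both stages, which called 0 of 7 genes (0.0453% of all genes, all of them lower) and 0 with DESeq2. Hoxc8 had the smallest p there, with an effect lower at E9.5 by a log2 of −0.39 (SE 0.13, interval −0.66 to −0.12, edgeR adjusted p = 0.489), the 1 unadjusted p under 0.05 of 7 (6.86% of all genes).

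Across the 12 E10.5 libraries the 5′ genes varied together, described here with no p because genotype groups and single low libraries are shared by all genes. Pearson's r of log2(CPM + 0.5) between Hoxc10 and Hoxc11 was 0.94, and 0.78 over the 11 libraries other than Del(i9-13) library 2. Hotair and Hoxc11, its neighbour, had r of 0.93, and 0.90 without that library. Hoxc12 and Hoxc11 had 0.87, and 0.92 without it. Hoxc8 had lower r with the other 6 genes, from −0.14 to 0.21, and from 0.0053 (Hotair) to 0.42 (Hoxc9) without that library.

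Among 12535 other named autosomal genes at a mean of at least 1 CPM, the genes whose levels over these libraries were most like Hoxc10 were Tbx4 (r = 0.98), Hoxa13 (0.97) and Pitx1 (0.94). Without the 2 libraries farthest from the Hoxc10 median, which include Del(i9-13) library 2, r was 0.86, 0.59 and 0.81. For Hoxc11 they were Hoxd12 (0.96, and 0.83 without its 2 farthest libraries), Tbx4 (0.94 and 0.67) and Pitx1 (0.93 and 0.61). Hoxc12 was most like Hoxd12 (0.91 and 0.79), the presomitic mesoderm gene Msgn1 (0.89 and 0.78) and Tbx6 (0.89 and 0.73). Hotair was most like Hoxa11os, an antisense transcript of HoxA (0.93 and 0.81), Miip (0.91 and 0.72) and Hoxd12 (0.90 and 0.69). Hoxc13 was most like Ets2 (0.95 and 0.83), Cptp (0.93 and 0.76) and Usp12 (0.92 and 0.71). No Hox gene was among the 3 most like Hoxc9, which were Pmaip1 (0.88 and 0.81), Sh3yl1 (0.87 and 0.71) and Uxs1 (0.86 and 0.78), nor among those of Hoxc8, which were Ltbp2 (0.89 and 0.77), Cln6 (0.88 and 0.73) and Ltbr (0.87 and 0.70).

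Other genes of the setting were read beside these values. The anterior HoxC genes Hoxc4, Hoxc5 and Hoxc6 gave 0 calls in every comparison, with Hoxc6 at 0.57 in Del(i9-13):Hoxb13hd against wild type (adjusted p = 0.174, edgeR). Of 14 genes beside the HoxC cluster, 13 were tested and 0 called in every comparison, such as Tarbp2, a partner of Dicer, at 0.31 in Hoxb13hd against wild type (edgeR adjusted p = 0.0710) and Calcoco1 at 0.24 in Del(i9-13):Hoxb13hd against wild type. Among 13 posterior Hox genes of other clusters, Hoxb13 was called higher in all comparisons that ask for the deletion effect at 1 stage. Hoxb9, at the other end of the interval, was called lower in the same comparisons other than Del(i9-13):Hoxb13hd against wild type, where it was not. Hoxd9 was the called member of that list in Hoxb13hd against wild type (log2 0.59, edgeR adjusted p = 0.0118).

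Of 10 limb bud genes, the T-box gene Tbx15 alone was called, higher in Del(i9-13):Hoxb13hd than in Hoxb13hd (log2 1.01) and in the averaged deletion effect (0.81, adjusted p = 0.0357, edgeR). Of the 18 axial elongation genes, Lin28a (−0.51) and Lin28b (−0.27), which hold back developmental timing, were called lower in the averaged deletion effect. All 10 Polycomb and H3K27 demethylase genes, all 6 TALE genes, whose products bind DNA together with Hox proteins, and all 8 motor neuron genes were tested (7 of these at E9.5), and 0 were called in any comparison. The Ring1 gene of the Polycomb complexes came nearest, at 0.41 in Hoxb13hd against wild type (edgeR adjusted p = 0.0522). Of the 4 tested noncoding RNA genes of other Hox clusters 0 were called, with Hotairm1, which lies in HoxA, at −0.78 in Del(i9-13):Hoxb13hd against Hoxb13hd (adjusted p = 0.0675, edgeR).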

How the data were processed

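Groups came from the sample titles, and 0 columns were left unused. The count table deposited by the authors holds whole-number read counts per gene, and their FPKM table was made with Cufflinks 2.2.1, per the submitters' notes. The notes on processing by the submitters also name cutadapt 1.18, STAR 2.7.10a and mm10. How reads were counted (version, strand, annotation) is not given in the sources. Both library kits were stranded, per the labels' protocols.

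Counts were fitted in R 4.3.3 with edgeR 4.0.16 (filterByExpr with minimum count 10 and minimum total 15, TMM scaling, robust quasi-likelihood), separately for 6 E9.5 and 12 E10.5 libraries and over both stages for the stage difference. Genes were called at an adjusted p (Benjamini-Hochberg, all genes tested) of 0.05. CPM are TMM-scaled counts, and levels between genes are FPKM. Exact two-sided permutation tests used log2(CPM + 0.1), where 3 against 3 cannot go below p = 0.1. On simulated counts with 200 genes changed by a log2 of 1, the fit recovered 97.5% among 15820 genes for E9.5 and 95.5% among 16971 for E10.5 Del(i9-13) against wild type, with 11 false calls each. The changed genes were drawn only from those with a mean CPM above that of Hoxc12, Hoxc13 and Hotair, and at E10.5 of Hoxc11. The recovered shares therefore do not apply to these low genes. As averages over the genes drawn, they do not describe Hoxc10 at E10.5 either. With Del(i9-13) library 2 in the fit, its change against wild type had an SE of 0.73.

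The members and lists were chosen with earlier results of these data known. Named genes are the 7 members, up to 4 genes per list (those called, by p, otherwise those with the smallest p) and the 3 genes most like each member; genes low in single libraries were named after their values were seen. Alternatives were RLE scaling, no filter, DESeq2 1.42.0, limma 3.58.1 on log2(FPKM + 0.1 or 1) with FPKM of at least 0.1 in 3 libraries, an Xist covariate, a replicate block, fits of only the groups compared and each library left out. Leaving out both doubted E10.5 libraries, and Del(i9-13) library 2 from the shared spread, was added after the data were seen. Replicate numbers did not pair the libraries: correlations of same-numbered libraries were 0.0137 to 0.133 at E9.5 and −0.255 to 0.184 at E10.5. Motif letters were searched in GENCODE M21 3′UTRs. No promoter or protein sequence was used here. Intervals of count ratios cover counting error only.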

Additional observations from a re-analysis of the deposited data

How the results depend on the processing

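Of 699 alternative values of the 43 log2 changes followed, 37 had the opposite sign, in 12 results, and 31 results kept their sign throughout. The number of genes called was 0 in 133 of 136 alternative counts. It was 1 (Hoxc10) in Hoxb13hd against wild type when only these groups were fitted (333 of 16447 genes called in all) or Del(i9-13) library 2 was left out of the shared spread (514 of 17544). It was also 1 (Hoxc8) in the averaged deletion effect with DESeq2 (382 of 32451). In the comparisons where DESeq2 called 0 of the HoxC genes, its calls over all genes ran from 72 of 32573 to 1194 of 32451. With an Xist covariate the E9.5 changes of Hoxc10, Hoxc11, Hoxc13 and Hotair turned to 0.17, 0.60, 0.96 and 0.58. There all 3 Del(i9-13) libraries were low in Xist, and of wild type only library 1. These values thus rest mainly on that wild-type library, which was low in tail bud genes. At E10.5 that covariate took Hoxc9 to −0.020 in Del(i9-13) against wild type, and it took Hoxc11 and Hotair to −0.14 and −0.10 where Del(i9-13):Hoxb13hd was set against wild type. Without both doubted libraries these last were −0.15 and −0.075, and Hoxc9 in the averaged effect was 0.061. limma on FPKM gave Hotair 0.018 at E9.5 (pseudocount 0.1), Hoxc9 0.080 and 0.064 in Del(i9-13):Hoxb13hd against Hoxb13hd (0.1 and 1), and, averaged, Hoxc9 0.043 and 0.037 (0.1 and 1) and Hoxc13 0.0054 (1). The causes were not tested. Leaving out 1 library at a time gave ranges through 0 at E9.5 for Hoxc8 (−0.025 to 0.069), Hoxc13 (−0.63 to 0.23) and Hotair (−0.35 to 0.13). In E10.5 Del(i9-13) they were −0.23 to 0.22 for Hoxc9 and −1.23 to 0.0036 for Hoxc10. In Del(i9-13):Hoxb13hd against wild type they were −0.15 to 0.34 for Hoxc11 and −0.076 to 0.56 for Hotair, and against Hoxb13hd −0.22 to 0.087 for Hoxc9. Averaged, they were −0.14 to 0.086 for Hoxc9 and −0.81 to 0.046 for Hoxc13. A replicate block, although the numbers do not pair the libraries, gave 0 calls in all 8 comparisons, with Hoxc8 at 0.29 in the averaged effect (edgeR adjusted p = 0.0959). Depth limits Hoxc12, Hoxc13 and Hotair, with 1 to 44 counts a library.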
